A study of Mus musculus with 12 samples.

Results

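Zbtb16, Bcl6, Matk, Galnt16, Ak3 and Synpo2l are 6 genes that were higher in oligodendrocyte precursor cells (OPCs) treated with dexamethasone and lower in OPCs treated with IFN-γ, each against untreated cells. They were picked by name, from the same reads that are described here, out of 55536 genes listed and 18386 genes tested. Their direction in each treatment is therefore what chose them and is given as a description without a test. Tests are given only for quantities that the choice of the 6 genes did not use. Examples are which transcript of a gene the reads fell on and what related or neighbouring genes did. The lists of related genes, however, were set with earlier results of these data known, so their tests are no independent support.

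RNA-seq was made from primary mouse OPCs of Sox10:Cre-RCE:LoxP (EGFP) pups, in which the oligodendrocyte lineage carries EGFP, from Sox10:Cre mice on C57BL/6j and reporter mice on mixed C57BL/6xCD1. Pups of both sexes were taken at P4 to P6, several brains were pooled for each experiment, and cells were isolated by Sox10-driven GFP or with CD140a beads and grown in medium with PDGFaa and bFGF. Which libraries came from which isolation is not given in the sources used here. The labels also name EAE as the mouse model, although the study's methods describe immunization of adult males only. Ctr-OPCs were left untreated, Dexa-treated OPCs received 1 µM dexamethasone, and IFN-γ-treated OPCs received the cytokine at 100 ng/ml, both over 48 h, with 4 replicates from different litters in each of the 3 groups. No vehicle-treated group is among the labels.

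Dexamethasone is a synthetic glucocorticoid that binds the glucocorticoid receptor, which then acts on DNA at response elements. IFN-γ signals through the kinases JAK1 and JAK2 to factors that bind interferon-gamma activated sites. Zbtb16 and Bcl6 are transcriptional repressors of the BTB zinc-finger family, and Zbtb16 is a known glucocorticoid-induced gene in several tissues. Matk is a kinase that holds Src-family kinases in check. Galnt16 starts mucin-type O-glycans, Ak3 is a mitochondrial nucleotide kinase, and Synpo2l binds actin at the Z-disc of striated muscle.

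Whole tables held between 19209059 and 52074655 reads in genes. The table of Dexa replicate 3 broke off after 33.7% of the transcripts, so it was kept out of the fits, which rest on 4 Ctr, 3 Dexa and 4 IFN-γ libraries. It lists Bcl6, Matk, Galnt16 and Synpo2l whole, and these are given apart. All 10 OPC markers were measured, with a summed level of 5405 to 9752 CPM (reads relative to a library total that TMM scaling adjusts) in Ctr-OPCs, 6133 to 10489 in Dexa-treated OPCs and 4013 to 8316 in IFN-γ-treated OPCs. Microglial markers summed to at most 1.72 CPM and lymphocyte markers to at most 0.827 CPM in any library. In the edgeR quasi-likelihood test with the replicate number as a block, 275 of 18386 genes differed between Dexa and Ctr at an adjusted p under 0.05 (1.5%), of which 228 were higher (1.24%) and 47 lower (0.256%). For IFN-γ, 5702 genes differed (31.0%), of which 2778 were higher (15.1%) and 2924 lower (15.9%). The Dexa count fell to between 78 and 140 when Ctr replicate 1, 2 or 4 or Dexa replicate 1 or 2 was left out, with 78 without Dexa replicate 2.

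Zbtb16 (ENSMUSG00000066687, chr9:48654297-48836222 on the minus strand of GRCm38) encodes PLZF, a BTB zinc-finger repressor. Its levels in Ctr-OPCs were 7.92, 7.33, 9.18 and 9.24 CPM in replicates 1 to 4. Dexa-treated OPCs had 20.8, 18.8 and 24.6 CPM in replicates 1, 2 and 4, and IFN-γ-treated OPCs had 5.68, 4.95, 6.36 and 5.65 CPM. Every Dexa library lay above, and every IFN-γ library below, all Ctr libraries. Fitted log2 differences from Ctr were 1.39 ± 0.08 (SE) for Dexa and -0.57 ± 0.08 for IFN-γ, and the 3 Dexa pairs of equal replicate number ranged only from 1.36 to 1.41.

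Bcl6 (ENSMUSG00000022508, chr16:23965052-23988852, minus strand), the BTB repressor best known from germinal centre B cells, was measured at 26.2, 25.6, 27.5 and 24.1 CPM in Ctr-OPCs. Dexa-treated OPCs had 37.6, 40.4 and 42.6 CPM, while IFN-γ-treated OPCs had 17.9, 16.9, 20.4 and 21.9 CPM. The 3 groups again did not overlap. The log2 difference was 0.66 ± 0.09 for Dexa and -0.43 ± 0.08 for IFN-γ. IFN-γ replicate 4 was the nearest to its Ctr partner, at -0.14, against -0.43 to -0.60 in the other pairs.

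RefSeq promoters (300 bases around a start site, GRCm38.p6) were found for 5 of the 6 genes, all but Zbtb16, as 10 windows. They were searched for the letters ACANNNTGT (core of a glucocorticoid response element), TTCNNNGAA (interferon-gamma activated site) and a pair of GAAA separated by 2 bases (interferon-stimulated response element), on both strands. Over all 32817 promoter windows these occur in 6.85%, 8.29% and 3.43%. Among the windows of the 5 genes the only matches were 4 interferon-gamma activated site letters at Bcl6, which are shown with 30 bases each because Bcl6 is the gene whose promoter holds such a motif more than once. Capitals mark TTCNNNGAA, which reads the same on both strands, and all are written on the minus strand, the strand of the gene.

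Bcl6 118 bases before the upstream start, chr16:23988951-23988980: agcaaattagTTCTCAGAAttccagaggcc
Bcl6 168 bases before the downstream start, chr16:23981432-23981461: aggccgcggcTTCCTGGAAagttacttctc
Bcl6 122 bases before the downstream start, chr16:23981386-23981415: ggcaggagtgTTCTGTGAAatccttagagc
Bcl6 88 bases before the downstream start, chr16:23981352-23981381: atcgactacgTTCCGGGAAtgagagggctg

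The first stretch lies outside the gene as GENCODE M21 annotates it. The other 3 lie within the first intron of Bcl6-201, in a single RefSeq promoter window, and 11 of 32817 windows (0.0335%) hold 3 or more such matches. A match of letters is a description and not a measured binding site.

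Matk (ENSMUSG00000004933, chr10:81252935-81263365, plus strand) encodes a kinase related to Csk that phosphorylates the inhibitory tyrosine of Src-family kinases. In Ctr-OPCs it was read at 5.92, 5.88, 6.77 and 7.93 CPM. Dexa-treated OPCs stood at 10.4, 9.97 and 10.7 CPM and IFN-γ-treated OPCs at 4.84, 4.64, 3.89 and 4.62 CPM. The groups did not overlap, and the Dexa libraries were the tightest of any group of this gene (coefficient of variation 3.56%). The log2 differences were 0.63 ± 0.12 for Dexa and -0.55 ± 0.12 for IFN-γ. Replicates 3 and 4, which share a prefix in their titles, showed the deeper IFN-γ differences (-0.80 and -0.78), while replicates 1 and 2 showed -0.29 and -0.34.

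Galnt16 (ENSMUSG00000021130, chr12:80518277-80630972, plus strand) encodes a polypeptide N-acetylgalactosaminyltransferase of the Golgi. Ctr-OPCs had 88.2, 86.9, 127.2 and 98.6 CPM. Levels were 165.8, 184.3 and 197.4 CPM in Dexa-treated OPCs and 56.2, 61.7, 83.7 and 69.8 CPM in IFN-γ-treated OPCs. Replicate 3 was the highest library of both the Ctr and the IFN-γ group, yet no IFN-γ library reached a Ctr library. The log2 differences, 0.99 ± 0.05 for Dexa and -0.56 ± 0.05 for IFN-γ, had the smallest standard errors among the 6 genes.

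Ak3 (ENSMUSG00000024782, chr19:29020833-29047961, minus strand) encodes the adenylate kinase of the mitochondrial matrix that uses GTP. Its Ctr levels were 129.1, 135.7, 129.4 and 143.1 CPM. Dexa-treated OPCs had 262.1, 219.6 and 190.3 CPM, and IFN-γ-treated OPCs had 109.8, 108.6, 95.7 and 112.6 CPM. Dexa libraries were spread more widely than Ctr libraries, with the largest difference from the partner in replicate 1 (1.02 on the log2 scale) and the smallest in replicate 4 (0.41). The fitted difference was 0.70 ± 0.10 for Dexa and -0.34 ± 0.09 for IFN-γ, the smallest IFN-γ difference of the 6. Ak3 overlaps the 3' part of Cdc37l1 on the opposite strand. The library kit kept the strand, but how strand was treated in the counting is not given in the sources used here.

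Synpo2l (ENSMUSG00000039376, chr14:20658946-20668354, minus strand) encodes a Z-disc protein of the synaptopodin family, and it was the scarcest of the 6 genes. Ctr-OPCs had 2.62, 1.88, 3.43 and 1.87 CPM. Dexa-treated OPCs had 7.57, 17.2 and 19.4 CPM, and IFN-γ-treated OPCs had 0.926, 0.587, 0.904 and 0.916 CPM, which is 31, 21, 26 and 24 reads. The 3 groups did not overlap, and Dexa replicate 1 lay far below the other 2 Dexa libraries. On the log2 scale the difference was 2.68 ± 0.31 for Dexa and -1.55 ± 0.34 for IFN-γ, the largest of the 6 in both directions. Dexa pairs differed by 1.53, 3.19 and 3.38, so the size of this increase varied more between litters than that of any other gene of the 6.

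**Figure D1:**
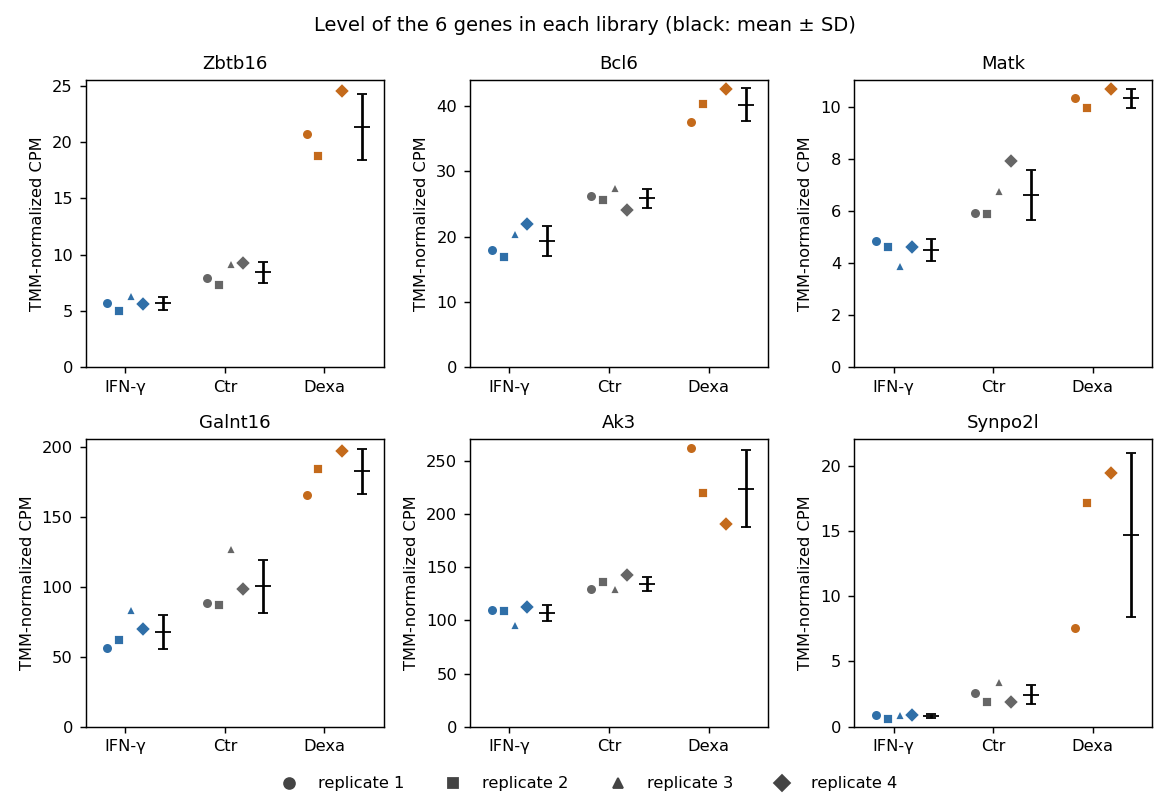
Level of each of the 6 genes (TMM-normalized CPM, linear axis from 0) in every whole library, by group, with the mean ± SD in black and the replicate number as the marker. In each panel the IFN-γ libraries lie below and the Dexa libraries above all Ctr libraries, and the widest Dexa spread relative to its mean is that of Synpo2l (7.57 to 19.4 CPM).

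For all 6 genes the groups did not overlap in either comparison and every pair had the direction that chose them. Over all genes tested, 2.54% were higher without overlap in Dexa, 5.77% were lower without overlap in IFN-γ, and 0.343% were both, while 20.2% were higher in every Dexa pair and 24.0% lower in every IFN-γ pair. Because the genes were chosen on these contrasts, nothing is read from that count. At an adjusted p under 0.05 in both comparisons with opposite signs stood 92 genes (0.5%), 77 of them higher with Dexa and lower with IFN-γ and 15 the reverse. The 6 genes are among the 92 by choice, and both comparisons share the Ctr libraries. Ordered by the smaller of both differences, Synpo2l was at rank 1, ahead of Trpc6, while Zbtb16, Galnt16 and Matk were at ranks 41 to 43, Bcl6 at 65 and Ak3 at 79. Leaving out Dexa replicate 2 lowered the 92 to 23, with 3 of the 6 genes, and it was 36 to 59 without Ctr replicate 1, 2 or 4, Dexa replicate 1 or IFN-γ replicate 2.

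**Figure D2:**
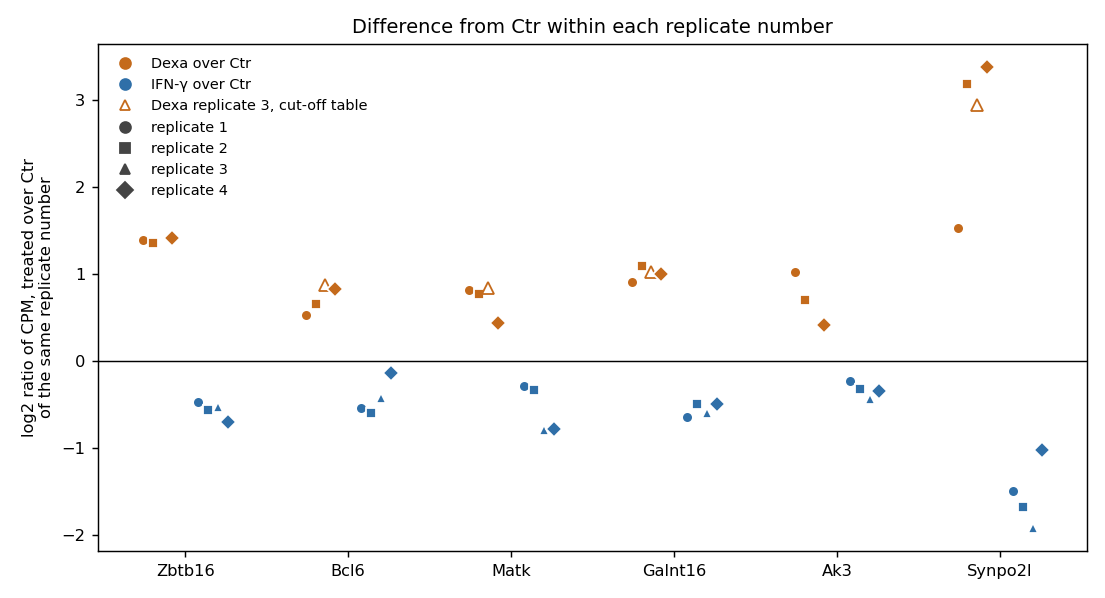
Log2 ratio of CPM between each treated library and the Ctr library of the same replicate number, for the 6 genes, with the line at 0 marking no difference. Filled Dexa markers lie above 0 (0.41 to 3.38) and IFN-γ markers below 0 (-1.92 to -0.14). The open triangles are Dexa replicate 3 from its broken-off table, scaled over the genes that all tables list.

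Dexa replicate 3 took no part in the fits and is compared over the genes that all 12 tables list, a scale on which CPM values are larger because fewer genes share the total. On it Bcl6 was at 125.9 CPM against 59.7 to 68.7 in Ctr-OPCs, and Matk at 30.1 against 14.7 to 19.6. Galnt16 was at 647.2 CPM against 217.4 to 318.1, and Synpo2l at 65.8 against 4.62 to 8.57. All 4 lay above every Ctr library on this scale. Against Ctr replicate 3 their log2 ratios were 0.87, 0.83, 1.02 and 2.94, in the order named. For Synpo2l this fell among the higher pairs rather than beside Dexa replicate 1. The share of all listed genes above every Ctr library was not taken. The libraries that chose the genes may include Dexa replicate 3, so these values are no separate support.

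Levels between genes can be compared only per length, for which the deposited TPM values (reads relative to transcript length and to the library total) were summed per gene. In Ctr-OPCs the order was Ak3 at 33.0 ± 2.36 TPM (SD, n = 4), Galnt16 at 17.9 ± 4.11, Bcl6 at 4.72 ± 0.47, Matk at 2.26 ± 0.40, Zbtb16 at 1.45 ± 0.07 and Synpo2l at 0.426 ± 0.14. No neighbours in this order overlapped between libraries. Under Dexa the order changed at the lower end, where Zbtb16 (3.04 to 4.25 TPM) overlapped Matk (3.33 to 4.09 TPM) and Synpo2l (1.38 to 3.44 TPM) overlapped both.

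The IFN-γ differences depended on the scale, and the Dexa differences did so less. On the TPM scale the median of 12518 genes with a mean of at least 1 TPM was 0.17 higher (log2) in IFN-γ than in Ctr. In Dexa this median was 0.01 higher. By pair the medians were 0.26, 0.25, -0.07 and 0.23 in IFN-γ replicates 1 to 4. They were 0.12, -0.15 and 0.05 in Dexa replicates 1, 2 and 4. What shifts these medians was not tested. On the TMM scale the medians over all genes tested were -0.03 in IFN-γ and -0.01 in Dexa. The share of all genes without overlap was not taken on the TPM scale. The 6 genes were chosen on these contrasts, so nothing is read from how many overlap. All 6 genes stayed above every Ctr library in Dexa on the TPM scale. In IFN-γ, Zbtb16 (1.03 to 1.16 against 1.40 to 1.55 TPM), Galnt16 (10.9 to 14.3 against 14.6 to 23.9) and Synpo2l (0.133 to 0.186 against 0.309 to 0.623) stayed below every Ctr library. Bcl6 (3.65 to 4.61 against 4.23 to 5.26 TPM), Matk (1.14 to 2.02 against 1.81 to 2.66) and Ak3 (23.9 to 34.5 against 29.8 to 35.5) overlapped Ctr, with 3 of 4 pairs lower. The mean pair difference of Ak3 was -0.14 on the TPM scale, and against the rise of the median gene by 0.17 it was still on the lower side.

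In RNA of bulk cultures, fewer cells that express a gene and less RNA of it per cell cannot be told apart. OPC markers moved with the IFN-γ difference: 8 of 10 were called lower (C1ql1, Cacng4, Cspg4, Lhfpl3, Olig2, Pdgfra, Sox10 and Vcan) and 0 higher, beside 15.9% and 15.1% of all genes, with a median log2 difference of -0.59. The call of Olig2 was lost without Ctr or IFN-γ replicate 1 or any library of replicate 2 or 4 (adjusted p of 0.0766 to 0.137), and that of Vcan without Ctr or IFN-γ replicate 2, 3 or 4 or Dexa replicate 2 (0.0568 to 0.156). Of 11 markers of differentiating oligodendrocytes, 6 were called lower. The summed level of the 11 was 964 to 7560 CPM in Ctr-OPCs and 442 to 2281 CPM in IFN-γ-treated OPCs. Without the replicate block, edgeR lost all 8 OPC calls (adjusted p of 0.0935 to 0.643) and all 6 of these (0.0615 to 0.434). The call of Enpp6, among the 6, was also lost without Ctr or IFN-γ replicate 3 or 4 (0.0573 to 0.157). Dexa called Cspg4 higher (0.65 ± 0.09, adjusted p = 0.0047 in edgeR's test, and 0.0554 without Dexa replicate 2) and no other OPC marker. Astrocyte markers moved as well: of 8 tested, Gfap (3.98 ± 0.37), Aldoc (0.87 ± 0.15) and Aldh1l1 (0.74 ± 0.16) were higher in IFN-γ and Aqp4, Fgfr3 and Gja1 lower, and their summed level was 541 to 1637 CPM in Ctr-OPCs, 1156 to 2083 in Dexa-treated OPCs and 1059 to 1611 in IFN-γ-treated OPCs. In Dexa Aldoc was called higher (0.98 ± 0.17, adjusted p = 0.017), and not without Ctr replicate 2 or 4 or Dexa replicate 1 or 2 (0.0778 to 0.167). Neuron markers summed to 14.8 to 26.1 CPM over all libraries, and of 4 tested Syt1 was higher in IFN-γ and Gad1 and Snap25 lower. Snap25 was higher in Dexa (0.66 ± 0.11, adjusted p = 0.016), and not without replicate 1 or 2 of Ctr or Dexa (0.0769 to 0.19). Because Matk is known from megakaryocytes and Synpo2l from striated muscle, markers of both were read as well. Megakaryocyte markers summed to 3.81 to 14.0 CPM over all libraries with Gp9 at 0 in all of them, and edgeR called 0 of 3 tested in either comparison (0 and 1 at an unadjusted p under 0.05 in Dexa and IFN-γ, and 0 by DESeq2). Striated muscle markers summed to 6.64 to 13.0 CPM in Ctr- and Dexa-treated OPCs and 11.4 to 29.6 CPM in IFN-γ-treated OPCs, where Myh7 was higher and Actc1 lower. Without the replicate block, the IFN-γ calls of Gfap, Syt1 and Myh7 held. Those of the other astrocyte, neuron and muscle markers named here were lost, as were the Dexa calls of Cspg4, Aldoc and Snap25. The part of any of these markers in the differences of the 6 genes was not tested.

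Which transcript carried the reads was not used to choose the genes and could be tested. Leading transcripts held most reads of 5 genes in Ctr-OPCs: Zbtb16-201 with 65.3% ± 9.53 (SD, n = 4), Bcl6-201 with 89.1% ± 2.05, Galnt16-201 with 97.6% ± 0.80, Ak3-201 with 99.5% ± 0.11 and Synpo2l-203 with 91.3% ± 2.91. Synpo2l-203 begins inside the gene, at 20664574, whereas the other 2 annotated transcripts begin upstream of it. Matk reads were split over 11 transcripts, 2 of which received 0 reads in every library, and none held most of them. Matk-207, annotated as a target of nonsense-mediated decay, had the highest mean over all libraries, but it was first only in IFN-γ-treated OPCs. Matk-210, an intron-retaining transcript, was first in Ctr-OPCs (26.3% against 24.8%).

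Of 12 two-sided exact permutation tests of the leading transcript's share, 0 passed after Benjamini-Hochberg adjustment. The permutations did not keep the pairing by replicate number. No test could pass alone, because the smallest possible p of 0.0286 is too large for an adjustment over 12 tests. That 0 passed therefore says little about the shares. At the smallest p that 4 against 4 libraries can give were 2 of the 12 tests. Matk-207 took 34.4% ± 3.91 of Matk reads in IFN-γ-treated OPCs against 24.8% ± 5.95 in Ctr-OPCs (n = 4 each, exact permutation p = 0.0286, adjusted p = 0.171). Synpo2l-203 took 99.4% ± 0.67 of Synpo2l reads in Dexa-treated OPCs, Dexa replicate 3 included, against 91.3% ± 2.91 in Ctr-OPCs (n = 4 each, exact permutation p = 0.0286, adjusted p = 0.171). In both cases every treated library lay above every Ctr library. With 3 Dexa libraries Zbtb16 and Ak3 cannot reach below 0.0571. Salmon divides reads between overlapping transcripts by estimation, and the Synpo2l share rests on 21 to 165 reads in each Ctr and IFN-γ library.

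**Figure D3:**
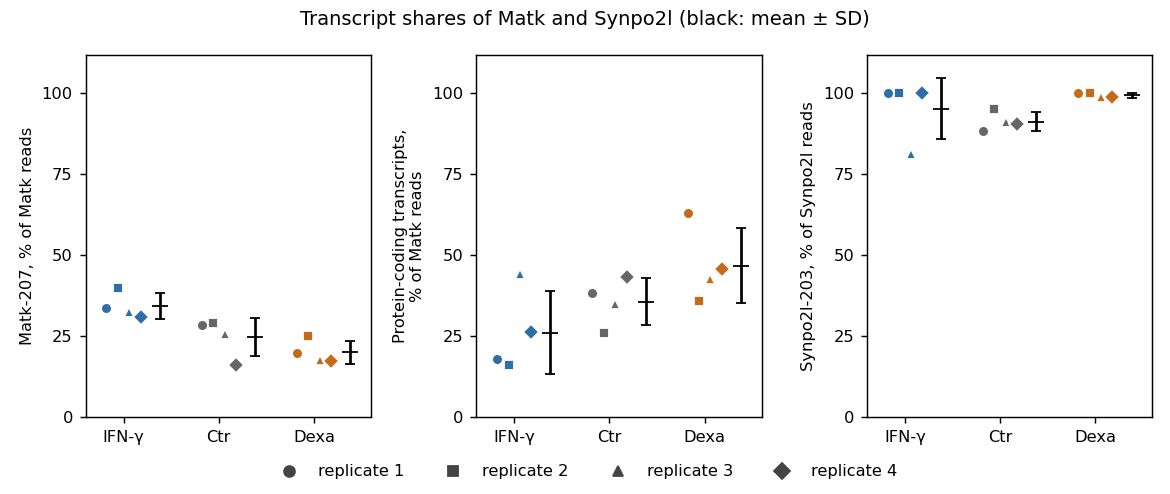
Share of a gene's reads (percent, axis from 0) that fell on Matk-207, on all protein-coding transcripts of Matk, and on Synpo2l-203, in each library with the mean ± SD in black. Matk-207 lies higher in IFN-γ (31.0 to 40.0%) than in Ctr (16.2 to 29.1%), and Synpo2l-203 higher in Dexa (98.8 to 100.0%) than in Ctr (88.3 to 95.3%).

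The coding transcripts of Matk together, a sum chosen after the values were seen and so not tested, held 26.0 to 43.4% of its reads in Ctr-OPCs. They held 35.8 to 63.0% in Dexa-treated OPCs and 16.1 to 44.2% in IFN-γ-treated OPCs. These ranges overlap, and the 44.2% of IFN-γ replicate 3 lay above all Ctr libraries while the other 3 IFN-γ libraries held at most 26.2%.

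Related genes were read to see whether the families of the 6 genes moved with them. Of 46 other BTB zinc-finger genes tested, edgeR called 0 in Dexa (0 at an unadjusted p under 0.05, and 0 by DESeq2), where 1.5% of all genes were called. IFN-γ called 6 higher and 2 lower, beside 15.1% and 15.9% of all genes. The higher ones included Zbtb5 (0.56 ± 0.05, adjusted p = 7.1e-06), Zbtb20 (0.85 ± 0.11, adjusted p = 1.9e-04) and Zbtb7b (0.92 ± 0.12, adjusted p = 2.0e-04), a regulator of T-cell lineage choice. Zbtb7c was lower (-0.55 ± 0.13, adjusted p = 0.0093), and this call was lost without Ctr replicate 2 (adjusted p = 0.052) or IFN-γ replicate 2 (0.0589). The median over the 46 genes was 0.01 in Dexa and -0.06 in IFN-γ, beside -0.01 and -0.03 over all genes. The IFN-γ count of 8 ranged from 4 to 12 when single libraries were left out, and was 2 without the replicate block. It was 4 or 5 without Ctr replicate 2 or 4 or IFN-γ replicate 2.

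BTB repressors work through corepressors with histone deacetylases, and of 18 such genes edgeR called 0 in Dexa (3 at an unadjusted p under 0.05, and 1 by DESeq2 with the block). In IFN-γ 3 were called higher, the deacetylases Hdac9 (0.50 ± 0.08), Hdac1 (0.27 ± 0.05) and Hdac7 (0.39 ± 0.08), and 0 lower, beside 15.1% and 15.9% of all genes. This IFN-γ count was 6 without IFN-γ replicate 1 and 1 without the replicate block. Genes that Bcl6 represses in B cells were nearly all higher in IFN-γ, where Bcl6 itself was lower: 9 of 10 tested, beside 15.1% of all genes, with a median log2 difference of 1.07. The count was 6 without Ctr or IFN-γ replicate 3 and 4 without the replicate block. They included Cxcl10 (10.15 ± 0.19), Socs2 (4.41 ± 0.22) and Cd44 (0.82 ± 0.08). Cxcl10 is also in the list of interferon response genes, all 18 of which were higher, so this list is not separate from that response. In Dexa, where Bcl6 was higher, 1 of the 10 was called, Bcl2l1 (0.50 ± 0.08, adjusted p = 0.011), an inhibitor of apoptosis, and it was higher. That call was lost without Ctr replicate 1 (adjusted p = 0.0545), Dexa replicate 1 (0.0815) or Dexa replicate 2 (0.121).

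Around Matk, 11 genes of the Csk and Src families and their partners were tested. Csk, the closest relative of Matk, was not called in either comparison (-0.15 ± 0.09 in Dexa and -0.15 ± 0.08 in IFN-γ). IFN-γ called 7 lower, beside 15.9% of all genes, among them Pag1 (-0.54 ± 0.05), the membrane anchor of Csk, Yes1 (-0.34 ± 0.06) and Erbb2 (-0.69 ± 0.13). Lck was the only one called higher (3.27 ± 0.24), from at most 0.378 CPM in Ctr-OPCs to 1.87 to 3.61 CPM in IFN-γ-treated OPCs. Dexa called Ptk2b alone (3.55 ± 0.57, adjusted p = 0.013), at 0.893 to 3.91 CPM against 0.027 to 0.339 in Ctr-OPCs, and not without Ctr replicate 2 (adjusted p = 0.107), while 2 genes were called without Ctr or IFN-γ replicate 3. The IFN-γ count fell from 8 to 5 without Ctr or IFN-γ replicate 2, and to 2 without the replicate block.

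Among 15 enzymes of mucin-type O-glycosylation other than Galnt16, IFN-γ called 7 lower and 1 higher, beside 15.9% and 15.1% of all genes, with a median of -0.26. Galnt10 (-0.61 ± 0.05, adjusted p = 1.7e-05), Galnt17 (-0.83 ± 0.11, adjusted p = 2.4e-04) and Galnt18 (-1.08 ± 0.18, adjusted p = 0.0011) were lower, as Galnt16 was, and Galnt7 was higher (0.26 ± 0.06). Galnt18 was also the only gene of this list called in Dexa, and in the opposite direction (0.96 ± 0.18, adjusted p = 0.029). It stood at 2.14 to 8.63 CPM in Ctr-OPCs, 7.51 to 22.2 CPM in Dexa-treated OPCs and 1.08 to 4.99 CPM in IFN-γ-treated OPCs, and these ranges overlap. Its Dexa call was lost without Ctr replicate 1, 3 or 4, Dexa replicate 1 or 2, or IFN-γ replicate 3 (adjusted p of 0.0529 to 0.205). The IFN-γ count was 5 without Ctr replicate 2, 3 or 4 or IFN-γ replicate 3, and 1 without the replicate block.

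Nucleotide kinases other than Ak3 split in IFN-γ, with 5 of 16 higher and 4 lower, beside 15.1% and 15.9% of all genes. Without the replicate block 3 of the 16 were called. Cmpk2, a mitochondrial kinase known as interferon-inducible, was the most changed (3.29 ± 0.06). Ak1, a cytosolic adenylate kinase, was higher (0.64 ± 0.08), while Nme3 was lower (-0.98 ± 0.11). In Dexa edgeR called 0 of the 16 (5 at an unadjusted p under 0.05, and 0 by DESeq2), and 1 without IFN-γ replicate 1.

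Of 16 synaptopodins and other actin proteins of the Z-disc, IFN-γ called 3 higher and 1 lower, beside 15.1% and 15.9% of all genes, with a median of 0.04. The higher ones were Synpo (1.19 ± 0.22, adjusted p = 0.0023), Synpo2 (1.52 ± 0.34, adjusted p = 0.007) and Pdlim4 (0.88 ± 0.24, adjusted p = 0.019). The call of Pdlim4 was lost without Ctr replicate 1 (adjusted p = 0.0899), and the IFN-γ count was 1 without the replicate block. In Dexa edgeR called 0 of the 16 (2 at an unadjusted p under 0.05, and 0 by DESeq2), and 1 without IFN-γ replicate 2. Synpo2 was at 1.42 to 2.39 CPM in Dexa-treated OPCs and 0.291 to 1.13 CPM in Ctr-OPCs, a difference of 1.21 ± 0.37 that did not pass the test (adjusted p = 0.214).

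**Figure D4:**
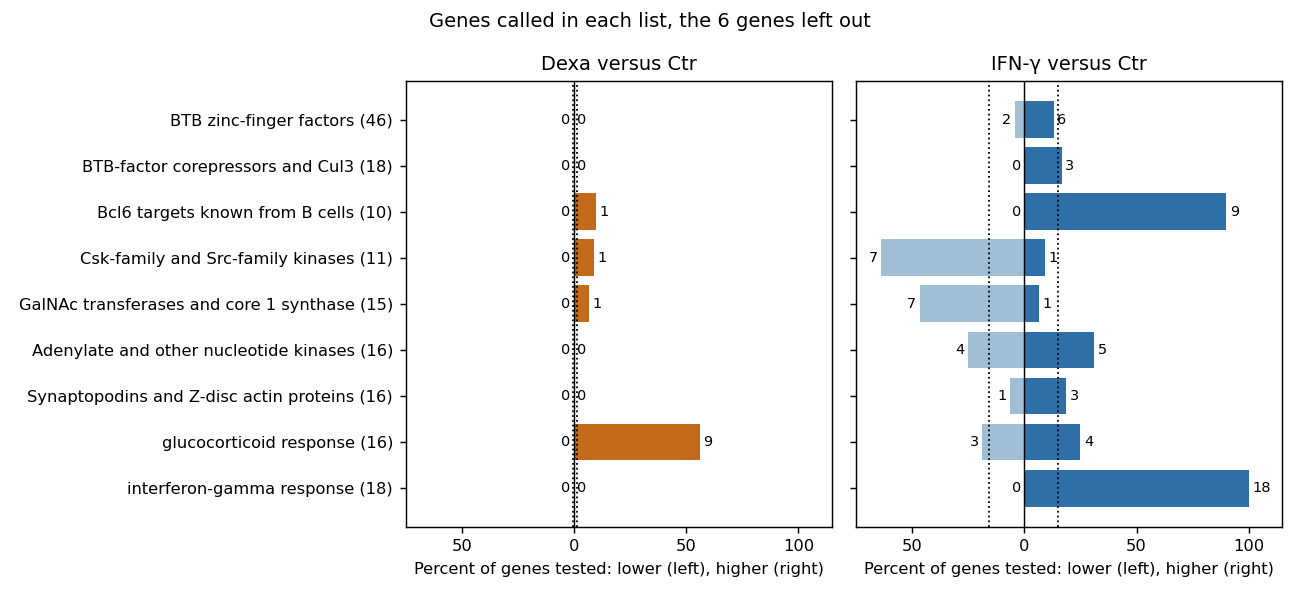
Percent of the tested genes of each list that edgeR called lower (left of 0) or higher (right of 0) in Dexa and in IFN-γ against Ctr, with the number of genes at each bar, the number tested in brackets and the share over all genes as dotted lines. Only the glucocorticoid list had more than 1 gene called in Dexa (9 of 16), and all 18 interferon response genes were higher in IFN-γ.

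Response genes of each treatment served as a yardstick. Of 16 tested glucocorticoid response genes, 9 were higher in Dexa and 0 lower, among them Fkbp5 (1.41 ± 0.06), Per1 (1.60 ± 0.07), Klf9 (1.29 ± 0.07) and Hif3a (6.39 ± 0.30). The Dexa count of this list was 6 to 11 when single libraries were left out. Without the replicate block it was 4, and the Klf9 call was lost (adjusted p = 0.158 in edgeR's test). Zbtb16, at 1.39, was as far from Ctr as Fkbp5. In IFN-γ the glucocorticoid list split into 4 higher and 3 lower, and 1 was called without the replicate block. Klf9 was higher there as well (0.38 ± 0.06, adjusted p = 0.0013), whereas Fkbp5 (0.00 ± 0.05), Per1 (-0.13 ± 0.07) and Hif3a (-0.23 ± 0.51) were not called. The only gene of the list with opposite calls was Cebpd, a transcription factor, at 1.22 ± 0.16 in Dexa (adjusted p = 0.0047) and -0.48 ± 0.16 in IFN-γ (adjusted p = 0.048). Its IFN-γ call was lost in 7 of 11 fits that left out a library (adjusted p up to 0.188) and its Dexa call without Dexa replicate 1 (0.0502) or 2 (0.0628). In Dexa edgeR called 0 of the 18 interferon response genes (1 at an unadjusted p under 0.05, 0 by DESeq2, and 1 in edgeR without Ctr or IFN-γ replicate 3), while Irf1 (6.01 ± 0.08), Gbp2 (10.15 ± 0.12) and Gbp5 (8.61 ± 0.11) had the smallest adjusted p of the list in IFN-γ.

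The 2 nearest tested coding genes on each side of each of the 6, 24 in all, were read to see whether the pattern reached along the chromosome. Dexa called 2 of 24 (higher) and IFN-γ 14 of 24, 4 of them higher and 10 lower, beside 1.24% of all genes higher in Dexa and 15.1% higher and 15.9% lower in IFN-γ. Opposite calls were found at a single neighbour, Usp54, of the ubiquitin-specific protease family, on the same strand, 17883 bases downstream of Synpo2l. Usp54 was higher in Dexa (0.83 ± 0.08, adjusted p = 5.3e-04) and lower in IFN-γ (-0.53 ± 0.07, adjusted p = 2.3e-04). Both calls held in all 11 fits without 1 library, and both were lost in edgeR without the replicate block (adjusted p = 0.236 in IFN-γ). The genes on the other side of Synpo2l, Sec24c and Fut11, were not called in Dexa.

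Beside Ak3, the overlapping Cdc37l1 was lower in IFN-γ too (-0.46 ± 0.08, adjusted p = 0.0017), and its Dexa difference of 0.20 ± 0.09 did not pass (adjusted p = 0.45). Jak2, the kinase of the IFN-γ receptor, lies 203867 bases beyond Ak3 and was higher in IFN-γ (1.15 ± 0.06, adjusted p = 2.4e-07). Zfr2 ends 812 bases before Matk and was lower in IFN-γ (-0.74 ± 0.12, adjusted p = 9.1e-04), with a Dexa difference of 0.19 ± 0.13 (adjusted p = 0.66). Near Bcl6, the interferon-inducible Rtp4 was higher in IFN-γ (7.05 ± 0.17), and Lpp was higher in both (0.61 ± 0.10 in Dexa, adjusted p = 0.015, and 0.66 ± 0.09 in IFN-γ). The Dexa call of Lpp was lost without Ctr replicate 1, 2 or 4 or Dexa replicate 1 or 2 (adjusted p of 0.0551 to 0.167). Htr3a, a serotonin receptor 62991 bases from Zbtb16, was lower in IFN-γ (-2.34 ± 0.44, adjusted p = 0.0025). Of the remaining IFN-γ calls, those of Atcay and Exd2 held without any single library. Those of Gm5617, Apba3, Dcaf5, Erh and Fut11 did not, each being lost without at least 3 of the Ctr and IFN-γ libraries, at an adjusted p of up to 0.151. Without the replicate block, the only neighbour calls that held were those of Jak2, Rtp4 and Lpp in IFN-γ.

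Across the 11 whole libraries the log2 levels of the 6 genes ran closely together, with Pearson's r from 0.863 to 0.978 over their 15 pairs. The libraries fall into 3 treatment groups and the genes were chosen for moving alike between them, so these values only describe the choice. Of all genes tested, those most like Zbtb16 were Synpo2l (r = 0.966), Bcl6 (0.965) and Galnt16 (0.964), and those most like Bcl6 were Synpo2l (0.978), Galnt16 and Zbtb16. For Synpo2l, Bcl6 and Zbtb16 came first, and for Matk, Galnt16 and Ak3 a gene from outside the 6. Cpe (0.969), Arhgef10 and Pstpip1 were most like Matk. Pik3r1, a regulatory subunit of PI3-kinase, was most like Galnt16 (0.984), with log2 differences of 0.62 in Dexa and -0.44 in IFN-γ. Hsd17b4 (0.967), Zhx3 and Gpd1 were most like Ak3, and Gpd1, a cytosolic glycerol-3-phosphate dehydrogenase, was also among the 3 most like Synpo2l (0.959), with 1.51 in Dexa and -0.75 in IFN-γ.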

How the data were processed

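The study covers 12 RNA-seq libraries of mouse OPCs. Per the labels, the authors quantified reads with Salmon 0.8.2, and the deposited tables list, transcript by transcript, estimated counts and TPM. Transcripts were assigned to genes with GENCODE M21 (GRCm38), estimated counts were summed per gene and rounded, and 11 of the 12 tables were whole (Dexa replicate 3 listed 47855 of 141862 transcripts). Deposited tables of the authors' own comparisons were not used. Genes reaching 10 counts in 3 or more libraries went into edgeR 4.0.16 (R 4.3.3): TMM scaling, quasi-likelihood test, all 3 groups in a single fit, replicate number as a block, Benjamini-Hochberg adjustment, called at an adjusted p under 0.05. The study's methods name DESeq2, which was run as an alternative (1.42.0). Libraries of the same replicate number deviated together from their group means, with r of 0.386 to 0.682 in 10 pairs. In 30 pairs of unequal number r was -0.571 to 0.463, highest for Ctr replicate 3 with Dexa replicate 4. Deviations from a group mean cancel within the group, which by itself lowers r in unequal pairs. The labels give different litters for the replicates. Replicate libraries differed by more than counting noise (chi-square over its degrees of freedom, 21.5 to 217). The lowest values, 21.5 and 23.8, were between replicates 3 and 4 of IFN-γ and of Ctr. Titles of replicates 3 and 4 share a prefix, and what it marks is not given. On simulated counts for 18386 genes, 73% of 2-fold and 92% of 4-fold changes were recovered for Dexa and 76% and 95% for IFN-γ. Of the calls, 8.29% and 7.65% were false, more than the threshold of 0.05 aims at. Each draw changed 100 genes per fold and comparison, far fewer than were called for IFN-γ here. No change below 2-fold was simulated.

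The 6 genes and all lists were chosen with earlier results of these data known, so their directions in these contrasts carry no independent support. Named are the 6 genes, up to 4 called genes of each list by smallest adjusted p, called neighbours (the 2 nearest tested coding genes on each side), and the 3 genes most correlated with each of the 6 in log2(CPM + 0.1); Ptk2b, Bcl2l1 and Cebpd were named beyond this after their values were seen, as were single markers. Some genes that the rule names are not reported here. Standard errors are the log2 difference over the square root of edgeR's F. Alternatives were the test without the block, DESeq2, RLE scaling, other count filters, only 2 groups, each library left out and, chosen after seeing the data, all 12 libraries over shared genes and the TPM scale. Between 19209059 and 52074655 reads per library limit low genes such as Synpo2l, and PCR copies count as reads here.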

Additional observations from a re-analysis of the deposited data

Results flagged for a closer look

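In groups of 4 libraries, a single library stood far from the other 3 in 3 of 28 groups checked, where chance alone flags about 1 in 20. Synpo2l was at 0.587 CPM in IFN-γ replicate 2, below the 0.904 to 0.926 CPM of the other IFN-γ libraries. Ak3-201 held 99.1% of Ak3 reads in IFN-γ replicate 3, and Synpo2l-203 held 81.3% of Synpo2l reads in that library against 100.0% in the other 3. In Dexa replicate 3, whose broken-off table is outside the fits, the 4 of the 6 genes that it lists whole lay above the Ctr libraries. On the scale of the genes listed in all tables they were Bcl6 at 125.9 CPM (Ctr up to 68.7), Matk at 30.1 CPM (up to 19.6), Galnt16 at 647.2 CPM (up to 318.1) and Synpo2l at 65.8 CPM (up to 8.57). This replicate may be among the libraries that chose the genes, so these values are no separate support.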

How the results depend on the processing

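The count of genes called, 275 for Dexa and 5702 for IFN-γ, fell to 24 and 1555 with edgeR and no replicate block, and to 100 and 2328 with DESeq2 and no block. The Dexa count was 456 with DESeq2 and the block, 642 with no count filter and 1442 with only the 2 groups compared. Over the 12 libraries and the genes listed in all tables, an alternative chosen after seeing the data, the counts were 122 and 2068, of fewer genes tested. Leaving out single libraries gave 78 to 399 genes for Dexa and 4133 to 5952 for IFN-γ. The 6 genes kept their direction in all 224 alternative fits of their differences and fell short of an adjusted p under 0.05 in 16 of them. Of these, 7 were Matk in Dexa: without the block or without Ctr or Dexa replicate 1, 2 or 4. Another 5 were Ak3 in IFN-γ: without the block, Ctr replicate 2, 3 or 4, or IFN-γ replicate 3. The rest were in Dexa: Bcl6 (without the block or Dexa replicate 2), Galnt16 (without the block) and Ak3 (without Dexa replicate 2). These fits reuse the values that chose the genes, so a kept direction only describes the choice. The number of genes with opposite calls ranged from 3 (no block, with 2 of the 6 genes) to 440 (only the 2 groups compared, with all 6). On the TPM scale all 12 differences also kept their direction. In the transcript shares, 0 of 12 tests passed under each alternative run. With 4 litters and the depth of these libraries, the share tests could not reach below the p given.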
